A study of Mus musculus with 4 samples.

Results

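The collagen chain genes of the rat were examined in RNA from exosomes of bone marrow mesenchymal stem cells (MSCs). Members were the protein-coding rows of the deposited gene table whose symbol is Col, a number, a and a number, and 44 of the 42977 rows met that rule. Exosomes are small vesicles that cells release into the medium. The cells came from male SD rats of 6 to 8 weeks and were used at passages 3 to 4. The 2 MSC-Exo libraries are from cells given DMSO, the solvent, and the 2 MSCATV-Exo libraries are from cells given 1 µmol/L of ATV (atorvastatin, a statin). All 4 libraries share exosome-free medium, and the exposure is given as 24 hours in one label and as 48 hours in another. The samples are registered as mouse, while the protocol, the genome build and the gene identifiers are of rat. The libraries are called untreated and treated below, numbered as in the labels. The labels do not say whether the 2 libraries of a group come from separate animals or cultures, so every spread and p-value below measures the spread between libraries, which may be technical.

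Collagens are triple helices of 3 chains, each chain encoded by its own gene. Fibril-forming collagens, above all types I, III and V, make the fibres of bone, skin and connective tissue, and fibroblasts and MSCs are known to make them in large amounts. Type IV builds the network of basement membranes, type VI the beaded filaments around cells, and types II, IX, X and XI belong mainly to cartilage. Other types sit on fibrils (the FACIT group), anchor epithelia, or span the cell membrane. With this background the 44 chains were divided, chain by chain, into 5 stromal fibrillar chains (Col1a1, Col1a2, Col3a1, Col5a1, Col5a2), 12 other chains of stroma, 22 chains mainly of other tissues and 5 left unassigned. The division does not follow type throughout. Col5a3, of type V, was put among the other chains of stroma, and Col11a1, of type XI, among the unassigned.

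Gene counts summed to between 5350295 and 5947020 per library, and the collagen chains held 9449 to 9609 of them, or 0.161% to 0.179%. Ribosomal RNA rows together with LOC257642 took 37.1% to 43.3% of the counts. Levels are given as RPKM, reads scaled by gene length and by the total of gene reads. Olfactory receptor genes, of which the table has 1189 and which MSCs are not known to express, served as a ruler: their median was 1.71 to 2.48 RPKM, against 4.12 to 4.74 RPKM for all protein-coding genes. Of 11 MSC markers found in the table, only Thy1 and Itgb1 were above 3 times the olfactory receptor median in every library. The medians of the marker lists lay at 2.21 to 3.27 times that ruler for MSCs, 2.22 to 2.46 for cartilage cells, 1.92 to 2.54 for osteoblasts, 2.01 to 3.47 for epithelium, 2.08 to 2.94 for endothelium, 1.75 to 2.96 for leukocytes, 2.06 to 2.91 for erythroid cells and 1.94 to 2.94 for nerve and muscle. No marker found in the table was at 0 in all 4 libraries, and outside the MSC list only Krt8 and Acta1 passed 3 times the ruler throughout. The medians of these lists did not set MSCs apart from other cell types, and whether Thy1 and Itgb1 do so was not tested. This is bulk RNA of exosomes, not of cells, so neither the number of cells of a type nor their RNA per cell can be read from it.

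Reads were recorded for 42 of the 44 chains. Col1a1 and Col3a1 stood above all others in every library, Col5a1 had the third highest mean, and most of the remaining chains lay close together near the level of an average protein-coding gene, whatever tissue they are known from. Without Col1a1 and Col3a1, the median chain with reads was at 5.20 to 6.24 RPKM, or 2.29 to 3.05 times the olfactory receptor median. Chains above 3 times that median in every library numbered 6 of 44 (13.6%), against 7.91% of protein-coding genes. They were Col1a1, Col3a1, Col5a1, Col6a1, Col13a1 and Col27a1, the last 2 with lowest ratios of 3.01 and 3.10. Above the median itself in every library were 37 chains (84.1%), against 58.8% of protein-coding genes.

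**Figure D1:**
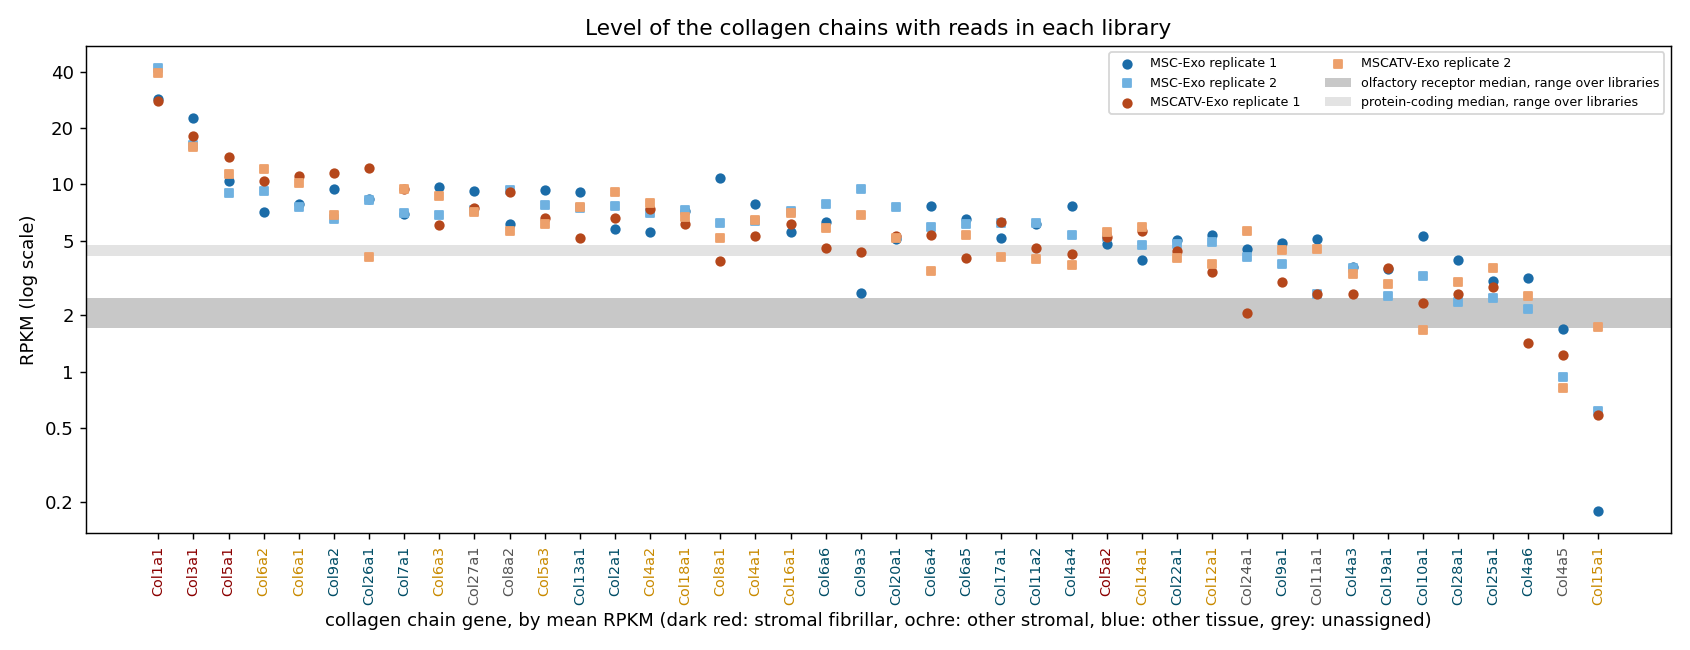
RPKM (log scale) of each of the 42 collagen chains with reads, ordered by mean, 1 point per library; grey bands span the per-library medians of olfactory receptor genes and of protein-coding genes. Col1a1 (27.8 to 41.9 RPKM) and Col3a1 (15.8 to 22.7) lie above every other chain. Chains classed with cartilage, epithelium and stroma mix along the rest of the order. Col1a2 and Col23a1, listed at 0, are not drawn.

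Col1a1 (chromosome 10, 82745801 to 82762790, plus strand of the rat build rn6) encodes the alpha 1 chain of type I collagen, the main protein of bone and tendon. It had 895 and 1307 counts in the untreated libraries and 964 and 1285 in the treated ones. These are 28.7 and 41.9 RPKM in untreated libraries 1 and 2 and 27.8 and 39.4 RPKM in treated libraries 1 and 2. In both groups replicate 2 was the higher library, and the groups overlapped. The gene lay between the percentiles 98.9 and 99.2 of protein-coding genes.

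Col3a1 (chromosome 9, 52023295 to 52059221, plus strand), which encodes the single chain of type III collagen of skin and vessels, had 22.7 and 16.2 RPKM in the untreated libraries and 18.1 and 15.8 RPKM in the treated ones. Its highest library stayed below the lowest of Col1a1, and its lowest stayed above the highest of Col5a1. The ratio of Col1a1 to Col3a1 was 1.27, 2.58, 1.54 and 2.50 in untreated libraries 1 and 2 and treated libraries 1 and 2, respectively, so it differed more between replicates than between groups.

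Col5a1 (chromosome 3, 6430180 to 6581010), a chain of type V collagen that starts and limits type I fibrils, had 10.4 and 8.97 RPKM in the untreated libraries and 14.0 and 11.3 RPKM in the treated ones. Its range overlapped those of Col6a2 and Col6a1, the next in the order by mean. Col8a1 exceeded it in untreated library 1, Col9a3, Col8a2 and Col6a2 did in untreated library 2, and Col6a2 did in treated library 2. Its partner chain Col5a2, which lies beside Col3a1 on chromosome 9 (52091088 to 52238735, minus strand), had 4.80 and 5.26 against 5.26 and 5.59 RPKM. Col5a2, a stromal fibrillar chain, thus stood at 1.94 to 3.08 times the olfactory receptor median, in the range of the cartilage chains. Col5a1 was 1.71 to 2.66 times Col5a2 over the 4 libraries.

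Col1a2, the partner of Col1a1 in the usual type I helix of 2 alpha 1 chains and 1 alpha 2 chain, was listed at 0 counts in all 4 libraries (chromosome 4, 31534225 to 31569152, plus strand). A count of 0 allows up to 3 counts, here 0.113 to 0.126 RPKM, for counting error only. The same table holds a second row, NEWGENE_621351, described as collagen type I alpha 2 (chromosome 4, 29529504 to 29565272, plus strand), which the rule does not take. That row had 102 and 147 counts in the untreated libraries and 143 and 199 in the treated ones, or 3.59 and 5.17 against 4.53 and 6.70 RPKM. Col1a1 was 5.88 to 8.10 times this row on the per-length scale, and the row lay below the median chain with reads in 3 of the 4 libraries, with 29 of the 42 chains above its mean of 5.00 RPKM. The Col1a2 row lies inside the interval of Slc25a13 on the opposite strand (31134165 to 31757006). How the authors' counting treated reads that match 2 rows is not given in the sources used here, so the level of Col1a2 is uncertain. Rows at 0 in every library made up 4.82% of protein-coding genes, and among them were Cttn, Hnrnpab and Exoc7, genes of broad expression picked after their values were seen.

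Col23a1, a transmembrane collagen, was the other chain at 0 throughout, with a limit of 0.217 to 0.241 RPKM. For it too a second row exists, LOC103693323, described as collagen alpha-1(XXIII), with 103 and 92 counts in the untreated libraries and 66 and 92 in the treated ones, or 1.89 to 3.28 RPKM. The reverse holds for Col11a2 and Col15a1, which had reads while their look-alike rows LOC100911886 and LOC108348074 were at 0 in all 4 libraries. Look-alike rows with reads were also present for Col4a3 (LOC100911572), Col25a1 (LOC102553088) and Col1a1 (LOC102546601, LOC102556297 and LOC108351077). Whether reads were shared with these rows was not tested, so the values of these chains are uncertain to differing degrees. The look-alike rows of Col1a1 had 0 to 67 counts, against 895 to 1307 for Col1a1. That of Col4a3 had 18 to 89 against 87 to 108, and that of Col25a1 83 to 147 against 33 to 50. The libraries do not mark the strand, and 16 of the 44 chains overlap another row on the opposite strand, so reads of the pair cannot be told apart.

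The remaining fibril-forming chains included those of cartilage. Col2a1, the main collagen of cartilage, had 5.80 and 7.65 RPKM in the untreated libraries and 6.64 and 9.15 RPKM in the treated ones, above Col5a2 in every library. It had 169, 223, 215 and 279 counts. The list of 9 cartilage cell markers, with Acan and Comp, had a median of 4.20 to 5.76 RPKM. Col11a2, its partner in cartilage fibrils, averaged 5.23 ± 1.13 RPKM (SD, n = 4) and Col11a1 3.70 ± 1.29. Col5a3 averaged 7.47 ± 1.43, Col24a1 4.09 ± 1.50 and Col27a1, a fibrillar chain of developing cartilage, 7.80 ± 0.964 RPKM. Apart from Col1a1, Col3a1 and Col5a1, the fibril-forming chains with reads were thus at 3.70 to 7.80 RPKM on average.

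The basement membrane chains of type IV come as 3 pairs of genes that stand head to head. Col4a1 and Col4a2, the pair found in nearly all basement membranes, overlap by a few bases on chromosome 16, where Col4a2 ends at 83522169 and Col4a1 starts at 83522162. Col4a1 had 7.84 and 6.36 RPKM in the untreated libraries and 5.32 and 6.43 in the treated ones, and Col4a2 had 5.55 and 7.08 against 7.36 and 7.96. The ratio of Col4a1 to Col4a2 was 1.41 in untreated library 1 and 0.722 to 0.899 in the other libraries. Col4a3 and Col4a4, chains of kidney and lung, averaged 3.28 ± 0.467 and 5.23 ± 1.73 RPKM. The latter rests on 24 to 47 counts and a listed length of 1152 bases, against 5609 for Col4a3. Col4a5 and Col4a6, the pair on the X chromosome, averaged 1.17 ± 0.384 and 2.32 ± 0.737 RPKM. Except for Col15a1, these had the lowest means of the chains with reads.

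Among the chains of type VI, Col6a1 and Col6a2, neighbours on chromosome 20 (12657913 to 12676370 and 12773472 to 12801179), and Col6a3 form the common heterotrimer. Col6a1 had 7.82 and 7.54 RPKM in the untreated libraries and 11.1 and 10.2 in the treated ones. Col6a2 had 7.12 and 9.27 against 10.4 and 12.0, and Col6a3 had 9.63 and 6.90 against 6.06 and 8.71. Per length, Col6a1 was at 0.813 to 1.10 times Col6a2, and Col6a3 was at 0.853 to 1.23 times Col6a1 in all libraries but treated library 1, where it was at 0.547 times. Col6a4, Col6a5 and Col6a6, a cluster on chromosome 8 known from few tissues, averaged 5.60 ± 1.73, 5.52 ± 1.09 and 6.15 ± 1.36 RPKM (SD, n = 4).

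FACIT chains lie on the surface of fibrils. Col12a1 and Col14a1, those of tendon and skin, averaged 4.38 ± 0.934 and 5.06 ± 0.896 RPKM, and Col16a1 6.49 ± 0.785. The type IX chains of cartilage were Col9a2 at 8.59 ± 2.34, Col9a3 at 5.80 ± 2.97 and Col9a1 at 4.02 ± 0.813 RPKM. These 3 build 1 cartilage heterotrimer, and Col9a2 exceeded Col12a1, a chain of stroma, in every library. Col19a1, Col20a1 and Col22a1, of restricted expression, averaged 3.14 ± 0.504, 5.80 ± 1.19 and 4.58 ± 0.437.

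Chains classed here with epithelia stood among those classed with stroma in the order of levels. Col7a1, the anchoring fibril chain of skin, had 6.92 and 6.99 RPKM in the untreated libraries and 9.47 and 9.49 in the treated ones, and Col17a1, a transmembrane collagen of hemidesmosomes, averaged 5.46 ± 1.04 RPKM. Of the network chains, Col8a1 and Col8a2 of vessel wall and cornea averaged 6.52 ± 3.01 and 7.59 ± 1.96, and Col10a1, of hypertrophic cartilage, 3.13 ± 1.57. The transmembrane chains Col13a1 and Col25a1 averaged 7.32 ± 1.64 and 2.98 ± 0.464. Of the multiplexins, which release anti-angiogenic fragments, Col18a1 averaged 6.85 ± 0.517 and Col15a1 0.773 ± 0.661 RPKM, the lowest of all chains with reads at 5, 17, 18 and 50 counts. Col26a1 had 8.32 and 8.25 RPKM in the untreated libraries and 12.3 and 4.11 in the treated ones, so the 2 treated libraries enclosed the untreated ones. Col28a1 averaged 2.98 ± 0.714.

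The comparison of stromal fibrillar chains with chains of other tissues rested on a few genes. In each library the median of the 5 stromal fibrillar chains was the value of Col5a1, since Col1a2 at 0 and Col5a2 lay below it. Col5a3, not counted in this class, was below Col5a1 in every library, so adding it would lower this median. The ratio with Col5a3 was not computed. This median was 2.00 and 1.49 times the median of the 22 other-tissue chains in the untreated libraries and 3.19 and 2.78 times in the treated ones, or 2.36 ± 0.766 (SD, n = 4) in all. Both treated libraries had the higher ratio. The exact two-sided permutation test gave p = 0.33, the smallest value that 2 libraries against 2 allow. Pooled reads over pooled length, which weigh each base alike, gave a ratio of 2.40, 2.64, 2.75 and 3.06 in the same order of libraries. Against the 6 cartilage chains alone the ratio of medians was 1.40 to 3.13. The 12 other stromal chains had a median of 6.10 to 7.18 RPKM, the other-tissue chains one of 4.07 to 6.04 and the 5 unassigned chains one of 2.60 to 5.66.

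**Figure D2:**
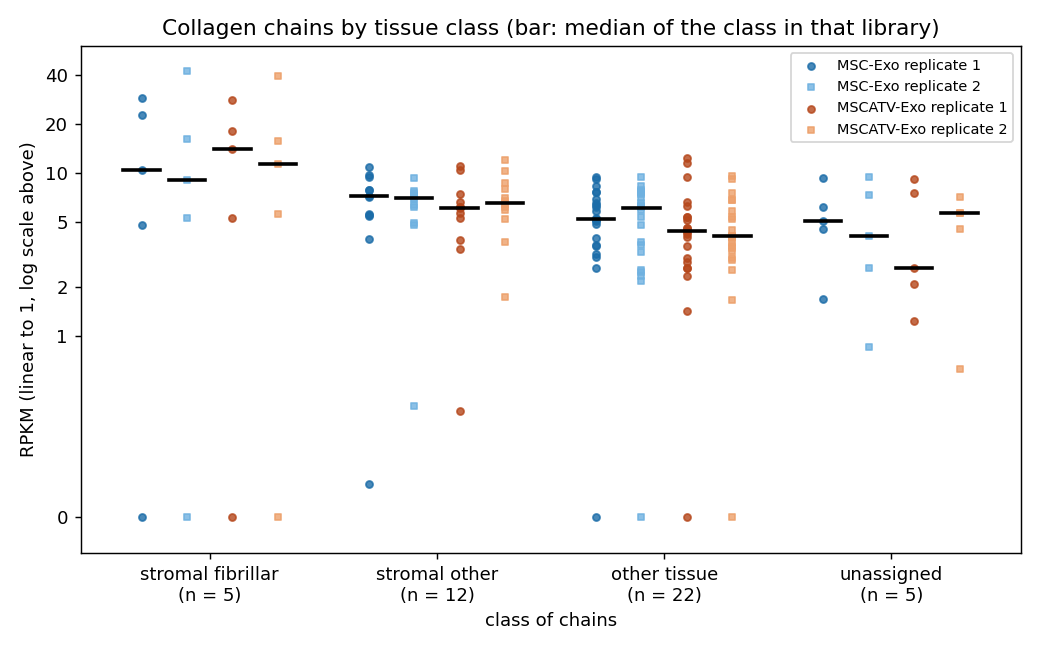
RPKM of the 44 chains in 4 classes, 1 point per chain and library, with a black bar at the class median of that library; the axis is linear up to 1 and logarithmic above. The stromal fibrillar class spans from 0 (Col1a2) to 41.9 RPKM (Col1a1), and the points of the other 3 classes overlap almost throughout.

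Read counts of the chains followed gene length. Over the 42 chains with reads, which share library and depth, Spearman's rho between count and length was 0.669 and 0.582 in the untreated libraries and 0.502 and 0.544 in the treated ones. Without Col1a1 and Col3a1 it was 0.769, 0.670, 0.581 and 0.620 over 40 chains. This is a correlation across genes within a library, and genes are not replicates. Col12a1, with the longest listed length at 12501 bases, had 254 to 361 counts. Col4a4, with the shortest listed length at 1152 bases, had 24 to 47. Its pair gene Col4a3 is listed at 5609 bases, and whether the Col4a4 row covers the whole transcript was not tested. Col1a1 had more counts than either at 5826 bases.

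**Figure D3:**
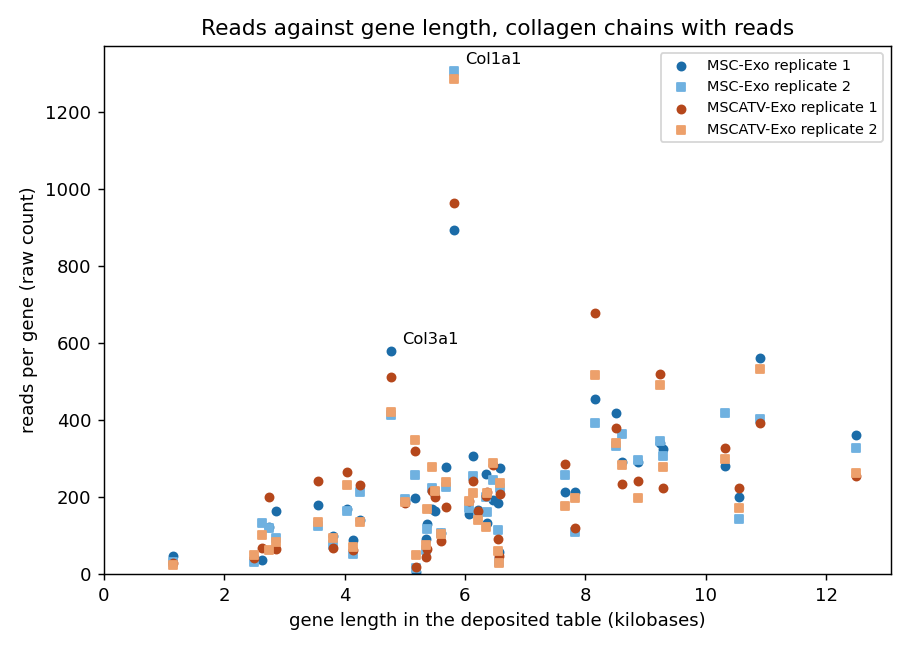
Raw read count of each of the 42 chains with reads against gene length in kilobases, 1 point per chain and library. Counts grow with length for most chains (rho 0.502 to 0.669), and Col1a1, at 895 to 1307 counts, and Col3a1, at 414 to 579, stand above chains of like length.

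Chromosome was a second feature that went with level. The X-linked Col4a5 and Col4a6 had a median of 2.43, 1.55, 1.32 and 1.68 RPKM in untreated libraries 1 and 2 and treated libraries 1 and 2, respectively, while the 40 autosomal chains with reads had one of 6.15, 6.46, 5.32 and 5.66. The X median was 0.240 to 0.395 of the autosomal one. For all protein-coding genes, 891 on X and 21716 on autosomes, the same ratio was 0.320 to 0.362, so the X-linked chains lay low together with the other genes of that chromosome. Its cause was not tested.

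Treatment with atorvastatin was examined with edgeR's quasi-likelihood test on the counts of all genes. Of the 42 tested chains 0 passed the adjusted threshold of 0.05, where 0.0% of all 33480 tested genes did (Benjamini-Hochberg adjusted p = 1.00 for each chain). None had an unadjusted p under 0.05, against 3.69% of all genes, and DESeq2 called 0 chains at its adjusted threshold, against 0.329% of all genes, with a smallest adjusted p of 0.295. Before adjustment 5 chains (11.9%) were under 0.05 by DESeq2, against 8.03% of all genes. By fitted values 16 chains were higher and 26 lower in the treated libraries, and their median log2 fold change was -0.07, beside -0.01 for all tested genes. All log2 fold changes are of the treated over the untreated group, and they ran from -0.97 to 1.60 with a median standard error of 0.33. The 2 libraries of a group differed by a median of 0.35 (MSC-Exo) and 0.32 (MSCATV-Exo) on the log2 scale of normalised CPM over the chains, and the group means by 0.25.

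Groups were apart, with no overlap of their libraries, for 19 of 42 chains (45.2%), against 33.5% of all tested genes. Of these, 9 were higher in the treated libraries (21.4%, against 16.1%) and 10 lower (23.8%, against 17.4%). On RPKM, without TMM factors, it was also 19 in all (33.7% of all tested genes), 7 higher (12.8%) and 12 lower (20.9%). In the authors' deposited table, whose test is not stated, 15 of the 42 chains had a q-value under 0.05 (35.7%), 6 higher and 9 lower, against 34.3% of all rows. The share of chains is near that of all rows, so the count of 15 is no result about collagens.

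**Figure D4:**
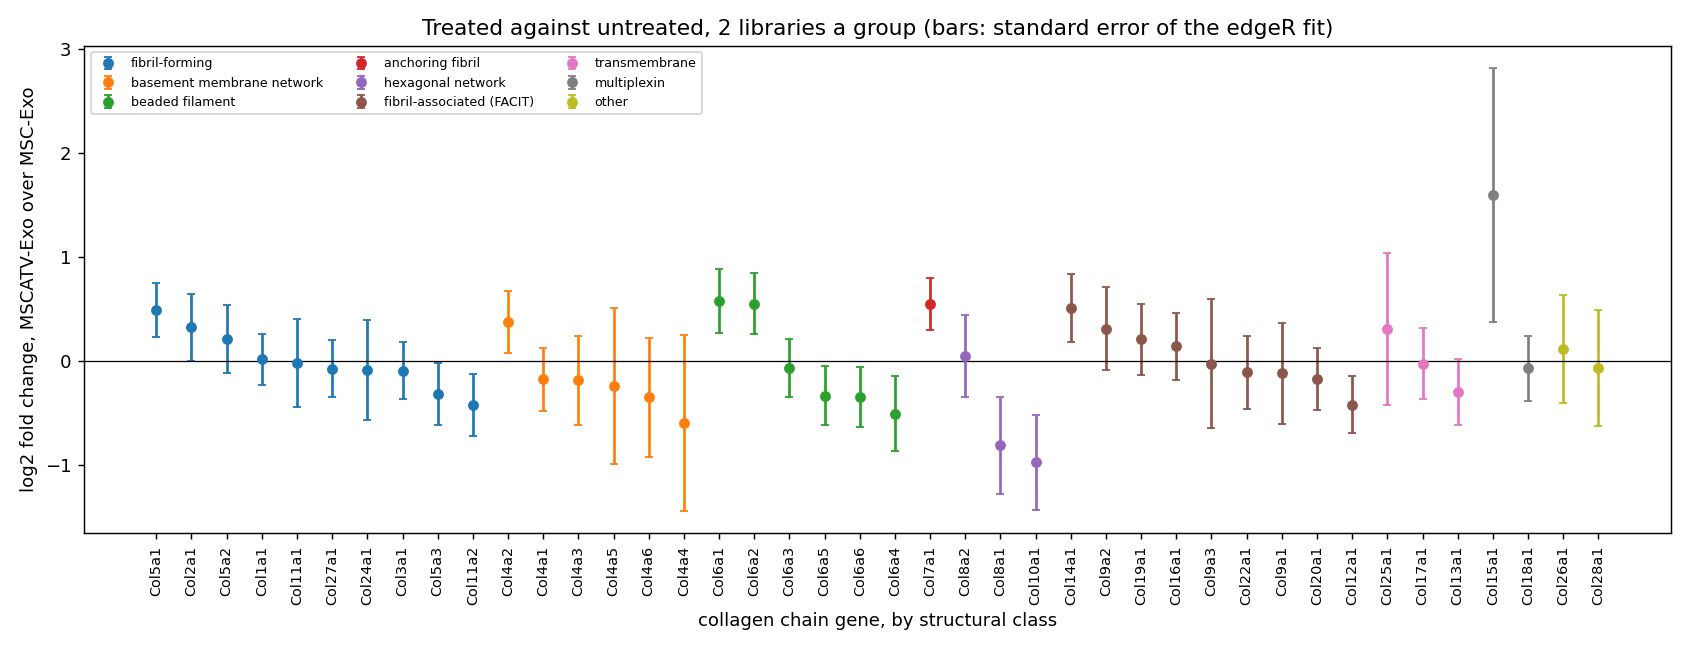
Log2 fold change of MSCATV-Exo over MSC-Exo for the 42 tested chains, grouped by structural class; bars are the standard error of the edgeR fit over 2 libraries a group. Values lie between -0.97 (Col10a1) and 1.60 (Col15a1), and none of the 42 passed the adjusted test.

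The most abundant chains differed little between groups. Col1a1 had a mean of 200 ± 54.8 normalised CPM (SD over 2 libraries) in the untreated libraries and 203 ± 37.3 in the treated ones, with a fitted log2 difference of 0.02 ± 0.25 (SE), which ranged from -0.24 to 0.33 when 1 library was left out. Col3a1 averaged 89.9 ± 20.3 against 84.4 ± 13.2 CPM (log2 fold change -0.09 ± 0.27, SE). For both, the difference was smaller than the spread between replicates. The second row of collagen type I alpha 2 was at 0.45 ± 0.39 (SE) with overlapping groups on RPKM. Of the 4 stromal fibrillar chains with reads 3 were higher by fitted value (median 0.12), of the 12 other stromal chains 6 (0.04), of the 21 other-tissue chains 6 (-0.12) and of the 5 unassigned chains 1 (-0.07). The difference between these classes was not tested beyond the ratio of their medians.

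The 6 chains with the smallest unadjusted p were Col7a1, Col10a1, Col6a2, Col5a1, Col6a1 and Col8a1. All of them had separated groups, and none passed the edgeR test. Col7a1 was at 61.6 and 63.2 CPM in the untreated libraries and 95.2 and 87.6 in the treated ones, a log2 fold change of 0.55 ± 0.25 (SE; 0.49 to 0.61 with a library left out). The distance between its groups was several times the spread within either, but a spread over 2 libraries is itself uncertain. Its p of 0.0534 by edgeR before adjustment was the smallest of the tested chains. Col5a1 was at 82.1 and 71.6 against 124 and 92.2 CPM (0.49 ± 0.26, SE). Col6a1 was at 30.4 and 29.8 against 48.7 and 41.2 CPM (0.58 ± 0.31), and Col6a2 at 35.5 and 46.9 against 58.8 and 62.2 CPM (0.55 ± 0.29). Their trimer partner Col6a3 was at 101 and 73.6 against 71.9 and 94.9 CPM (-0.07 ± 0.28), with overlapping groups.

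Of the 3 chains of hexagonal networks 2 were lower and 1 higher by fitted value, the last being Col8a2 at 0.05 ± 0.39 (SE) with overlapping groups. Col10a1, the chain of hypertrophic cartilage, was at 33.3 and 20.8 CPM in the untreated libraries and 16.7 and 10.9 in the treated ones (log2 fold change -0.97 ± 0.45, SE). Its untreated libraries differed from each other by about as much as the groups did, and without a library the value went from -1.31 to -0.60. By RPKM its treated libraries were at 2.34 and 1.66, the level of olfactory receptor genes. Col8a1 was at 29.7 and 17.3 against 12.1 and 14.8 CPM (-0.81 ± 0.47, SE; -1.14 to -0.38 with a library left out), the smallest value being that without untreated library 1. Col12a1 of tendon and skin, at 65.0 and 60.1 against 46.5 and 47.1 CPM (-0.42 ± 0.27), also had separated groups. Col15a1 had the highest value, 1.60 ± 1.22 (SE), on 5 and 17 against 18 and 50 counts.

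Basement membrane chains had 1 of 6 higher by fitted value, Col4a2 at 0.38 ± 0.30 (SE), and a median of -0.21. Its partner Col4a1 was at -0.17 ± 0.30, with overlapping groups. Of the 6 chains of type VI 2 were higher, with a median of -0.20, and the FACIT chains had 4 of 9 higher (median -0.02). The transmembrane chains had 1 of 3 higher (median -0.02). Col2a1 was at 0.32 ± 0.32 (SE), with overlapping groups.

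Genes that process or bind collagen were examined beside the chains. Helix formation needs prolyl and lysyl hydroxylases and the chaperone of procollagen, and crosslinks need lysyl oxidases. Of 20 folding and hydroxylation genes 14 were higher and 6 lower by fitted value (median log2 fold change 0.19), and 0 passed. Of 11 trimming and crosslinking genes 7 were higher and 4 lower (median 0.03), and of 10 receptors 6 and 4 (median 0.01), with 0 called by edgeR in either list. Unadjusted p-values under 0.05 were found for 1 of 20, 0 of 11 and 1 of 10 of them, against the 3.69% of all genes. Serpinh1, the chaperone of procollagen (HSP47), was at 19.9 and 21.4 RPKM in the untreated libraries and 22.3 and 18.1 in the treated ones, and P4hb, the beta subunit of prolyl hydroxylase, at 14.1 and 16.0 against 11.2 and 11.1. Crtap, of the prolyl 3-hydroxylase complex, ranged from 9.99 to 28.0 RPKM, with the lowest and the highest library both in the treated group. Lox and Loxl1, crosslinking enzymes, averaged 8.76 ± 1.30 and 9.60 ± 1.85 RPKM (SD, n = 4), and Pcolce, an enhancer of trimming, 11.2 ± 2.29.

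The receptors Itgb1, the beta 1 integrin, and Ddr2, a kinase that binds fibrillar collagen, were at 26.9 to 35.7 and 17.1 to 24.5 RPKM, in the range of Col1a1 and Col3a1. Mrc2, an uptake receptor for collagen, averaged 7.87 ± 1.08. Ddr2 had 1151 and 1323 counts in the untreated libraries and 1766 and 1723 in the treated ones, a log2 fold change of 0.49 ± 0.19 (SE). Ppib, a prolyl isomerase of helix folding, had 26 and 31 against 100 and 71 counts (1.58 ± 0.63), and P3h3, a prolyl 3-hydroxylase family member, 179 and 203 against 112 and 119 (-0.73 ± 0.35). The groups of these 3 genes were separated in counts, and none passed the edgeR test over all genes (adjusted p = 1.00).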

How the data were processed

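RNA of 4 exosome libraries was sequenced. TopHat2 and the rat builds rn6 and Rnor_6.0 are named per the submitters' processing notes, and the read counter and annotation release are not given in the sources used here. The gene table deposited by the authors gives a raw count and an RPKM per gene and library, the RPKM being count over gene length over the sum of the gene counts. Their comparison table gives mean RPKM, a log2 fold change, a p-value and a q-value, per the file headers, from a test that is not stated.

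The main test was a two-sided quasi-likelihood test of edgeR 4.0.16 (R 4.3.3) after filterByExpr with TMM factors and no covariate, adjusted by Benjamini-Hochberg over 33480 genes. SE is the fitted log2 fold change over the square root of F. The test was run on simulated data for this comparison with 33480 genes. It called 84 of 100 true 4-fold changes, 7 of 100 true 2-fold changes and 4 genes without a change. The changed genes were drawn only from genes of higher mean CPM. These shares thus do not cover the chains of lower mean CPM. Among these are Col5a2, Col8a1, Col9a2, Col10a1, Col11a1, Col15a1, Col24a1 and Col26a1. Alternatives were DESeq2 1.42.0, limma 3.58.1 on log2(RPKM + 1) or log2(RPKM + 0.1) for genes with a mean of at least 1 RPKM, other factors and filters, the replicate block, and leaving out each library.

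The members, classes and lists were chosen with earlier results of these data known. Chains named with values were the stromal fibrillar ones, the main chains of types IV and VI, the 10 highest, the 6 with the smallest p, the 4 highest and lowest of the other-tissue class and those at 0; of the collagen-processing lists, the 3 highest of each and the 3 with the smallest p. The remaining chains are given so that every member is accounted for. Of the 45 chains classified, Col21a1 had no row under that symbol. Reference tables of mouse were left aside, so no sequence is shown.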

Additional observations from a re-analysis of the deposited data

How the results depend on the processing

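The count of chains called was 0 under all alternatives run and with each library left out (0 to 0), where the lone library of a group is assumed to vary like those of the other group. Since few 2-fold changes can be called with 2 libraries a group, this says little about stability. Over all genes the count of 0 became 106 with DESeq2, 8 with no filter, 4 with the replicate block and 1 to 168 with a library left out. The median log2 fold change of the chains, -0.07, stayed below 0 throughout, but the median of all genes, -0.01, moved as well. With total counts the chains were at -0.17 and all genes at -0.11. With limma on log2(RPKM + 0.1) they were at -0.17 and -0.15. With a library left out the chains were at -0.14 to -0.03 and all genes at -0.08 to 0.04. Only without treated library 2 were the chains not below all genes (-0.07 against -0.08). Same-numbered libraries did not deviate together (correlation -0.000516 over 33480 genes). Such a correlation could miss a weak pairing, and the labels do not say whether the numbers pair the samples. With the replicate block the median of the chains was -0.07 and 17 chains were higher. The ratio of stromal fibrillar to other-tissue medians, 2.36, was 2.03 to 3.02 with other sets of chains and 3.02 without the chains at 0. With a library left out it was 2.09 to 2.65. Measures other than medians gave 2.71 (pooled reads over pooled length) and 1.61 (class means of log2(RPKM + 1), taken back to a ratio). Replacing Col1a2 and Col23a1 by their second rows left the ratio of medians at 2.36. It could not have moved, since each second row also lay below the median of its class in every library. Of 390 values of single genes under an alternative 30 changed sign, none of them called. With total counts, limma on log2(RPKM + 1) and limma on log2(RPKM + 0.1), in that order, Col1a1 was at -0.072, -0.065 and -0.067, Col26a1 at -0.017, -0.17 and -0.22 (-0.098 with the replicate block), Serpinh1 at -0.031, -0.034 and -0.036 and Pcolce at -0.065, -0.062 and -0.067. With a library left out the ranges were -0.24 to 0.33 for Col1a1, -0.97 to 0.74 for Col26a1, -0.22 to 0.084 for Col27a1, -0.39 to 0.34 for Col28a1, -0.30 to 0.15 for Col3a1, -0.28 to 0.17 for Col6a3, -0.19 to 0.69 for Col9a2, -0.15 to 0.28 for Serpinh1, -0.50 to 1.11 for Crtap, -0.19 to 0.27 for Pcolce, -0.028 to 0.34 for Lox and -0.37 to 0.087 for Mrc2; the cause was not tested.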
